A study of Mus musculus with 48 samples.

Results

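The unfolded protein response genes described here are the 34 genes of a fixed name list that were matched by symbol in a liver count table of 23732 genes. They were ordered by role into 4 genes of the stress sensors and Xbp1, 16 endoplasmic reticulum (ER) chaperones and folding enzymes, 7 genes of ER-associated degradation and 7 genes of the ATF4 pathway. All 34 passed the filter on low counts, and the lowest count of any of them in any mouse was 12.

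Hepatocytes secrete most plasma proteins, and these are folded in the ER. When unfolded protein accumulates, the membrane sensors IRE1 (Ern1), PERK (Eif2ak3) and ATF6 (Atf6) are released from the chaperone BiP (Hspa5). IRE1 splices Xbp1 mRNA into the form that encodes an active factor, ATF6 is cut to release a transcription factor, and both raise chaperone and degradation genes through ER stress response elements. PERK phosphorylates eIF2 alpha, which slows translation while favouring that of ATF4, a factor that acts on genes such as Ddit3, Trib3, Asns and Chac1. ATF4 is also reached through other eIF2 alpha kinases, such as the amino acid sensor GCN2. Mice eat mostly at night.

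KO and WT genotypes of male C57BL/6 mice aged 4 to 6 months were compared, in 12 groups of 4. KO mice carried floxed Bmal1 alleles and EsrCre, a ubiquitous Cre recombinase that is active after tamoxifen, and WT mice were Cre-negative littermates with the same floxed alleles. Both received tamoxifen by gavage, 5 mg a day for 5 days, and were studied 7 days later. After 36 h of constant darkness they were killed at 4 h steps, at ZT0, ZT4, ZT8, ZT12, ZT16 and ZT20. BMAL1 is the core activator of the circadian clock, and the design asks how its loss in adult mice alters liver mRNA over the day. Cre was present in the KO mice alone, so its own effect cannot be told apart from that of losing Bmal1.

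Library totals lay between 33562272 and 34035644 counts. The sum of 5 hepatocyte markers was 18148 to 26703 CPM (counts scaled to a common library total) in KO mice and 17124 to 29901 CPM in WT mice. The count of the targeted gene, listed as Arntl, covers the whole gene and so does not read the deleted part alone. It was 4.60 to 25.6 CPM in KO mice (median 16.6) and 0.979 to 47.8 CPM in WT mice (median 23.8). Of the 48 mice, 38 were group housed and 10 were housed individually, and an effect of housing was not tested. The group-housed mice of ZT4 and ZT8, of ZT12 and ZT16, and of ZT20 and ZT0 came from 3 separate sets of cages. Cage set and time are thus confounded except within these pairs, while each set held both genotypes. KO mice 20 and 21 of ZT12 and 43 and 44 of ZT0 lay farthest from their groups over all genes, with a mean correlation of 0.974 to 0.980 with the other 3 mice. The other 44 mice followed without a gap, at 0.981 to 0.990. Levels are CPM after scaling, log2 fold changes are KO minus WT with their standard error (SE), and a gene is called where the edgeR quasi-likelihood test gave an adjusted p under 0.05 over all 14836 genes tested. In whole liver, fewer cells of a type and less RNA per cell cannot be told apart.

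Promoters of many of the chaperone and degradation genes hold the letters of the ER stress response element. RefSeq promoters of build GRCm38.p6, from 250 bases before to 50 bases after the start, were matched for 30 of the 34 members and were searched on both strands. The ERSE, CCAAT and CCACG with 9 bases of any kind between them, was found in 10 of 30 members, against 39 of 32851 promoters in all (0.119%). The 10 were 8 of 14 chaperone genes (Hspa5, Hsp90b1, Dnajc3, Calr, Canx, Pdia6, Ero1lb and Creld2) and 2 of 6 degradation genes (Syvn1 and Derl3), with none among the 7 ATF4 pathway genes. The ERSE-II, ATTGG and CCACG with 1 base of any kind between them, was found in Dnajb11 and Herpud1, against 12 promoters in all (0.0365%). The letters TGATGNAA, the core of the element that ATF4 binds with C/EBP factors (CARE), were found in 5 members (Herpud1, Atf3, Trib3, Asns and Chac1), against 3.97% of all promoters. The E-box CACGTG, through which BMAL1 acts, was in 3 members (Dnajb9, Calr and Derl3), against 7.15% of all promoters. The XBP1 element core TGACGTGG was in none of the 30 and in 0.676% of all promoters, and the CRE letters TGACGTCA were in 1 (Ppp1r15a), against 1.79%. A member counted once where any of its promoters matched, while the shares over all promoters count each promoter, those of the members included. Any overlap between motifs was allowed, and a match is a description of letters, not of binding.

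Promoters of 4 members are shown because these genes carry the time patterns described next: Hspa5 and Creld2 with the ERSE, Herpud1 with the ERSE-II and a CARE, and Trib3 with a CARE alone. Capitals mark these matches as they read on the strand of the gene, where the ERSE of Creld2 and the CARE of Herpud1 and of Trib3 run in reverse. They lie at chr2:34771840-34772139 (plus strand), chr15:88819396-88819695 (plus), chr8:94386179-94386478 (plus) and chr2:152344011-152344310 (minus) of GRCm38.p6.
Hspa5: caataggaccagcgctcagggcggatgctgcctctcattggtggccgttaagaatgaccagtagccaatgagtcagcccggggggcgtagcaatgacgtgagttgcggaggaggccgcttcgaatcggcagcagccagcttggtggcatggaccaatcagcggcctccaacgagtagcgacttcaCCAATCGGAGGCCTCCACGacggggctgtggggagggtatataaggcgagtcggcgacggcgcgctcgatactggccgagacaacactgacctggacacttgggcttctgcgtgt
Creld2: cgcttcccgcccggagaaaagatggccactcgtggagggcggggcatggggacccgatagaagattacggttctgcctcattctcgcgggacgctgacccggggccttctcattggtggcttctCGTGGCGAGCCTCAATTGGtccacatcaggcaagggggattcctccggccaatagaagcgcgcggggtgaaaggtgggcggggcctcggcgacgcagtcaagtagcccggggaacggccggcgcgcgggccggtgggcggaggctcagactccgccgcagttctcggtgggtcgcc
Herpud1: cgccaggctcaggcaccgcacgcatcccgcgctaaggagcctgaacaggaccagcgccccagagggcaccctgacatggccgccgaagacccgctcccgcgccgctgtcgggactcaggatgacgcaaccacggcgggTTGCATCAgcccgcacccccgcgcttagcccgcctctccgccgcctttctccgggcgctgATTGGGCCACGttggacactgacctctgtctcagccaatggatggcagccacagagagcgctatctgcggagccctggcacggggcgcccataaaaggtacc
Trib3: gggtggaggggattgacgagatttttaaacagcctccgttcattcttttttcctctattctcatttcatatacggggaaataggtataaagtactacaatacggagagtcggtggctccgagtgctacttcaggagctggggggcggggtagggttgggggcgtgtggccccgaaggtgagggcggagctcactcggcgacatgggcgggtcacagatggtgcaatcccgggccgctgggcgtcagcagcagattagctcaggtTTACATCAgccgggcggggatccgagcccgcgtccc

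The elements of further members that are described below are shown with 4 bases on each side, read in the direction of the motif, with its fixed letters in capitals. The ERSE of Hspa5 began 65 bases before the start, those of Syvn1 and Pdia6 began 44 and 98 bases before it, and the ERSE-II of Dnajb11 began 7 bases after it.
Hsp90b1 (first of 2): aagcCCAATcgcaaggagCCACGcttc
Syvn1: gcaaCCAATcggcggtagCCACGggaa
Derl3: ctagCCAATggggaagtcCCACGgtag
Pdia6: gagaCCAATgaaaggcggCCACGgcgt
Dnajc3: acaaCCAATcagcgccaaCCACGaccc
Dnajb11 (ERSE-II): ggcgATTGGcCCACGcctg
Asns (CARE): cacaTGATGaAActtc
Chac1 (CARE): ggagTGATGcAAcggc

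Levels per length differed widely among the 34 genes. Per kilobase of annotated exon (GENCODE M21), Calr, a calcium-binding chaperone, was the most abundant, at 384 CPM per kb in KO livers and 368 CPM per kb in WT livers. Hspa5, the HSP70 chaperone that holds the sensors inactive, stood at 277 CPM per kb in KO livers and 257 CPM per kb in WT livers. Eif2ak3 was the lowest of the sensors, at 3.89 CPM per kb in KO livers and 3.85 in WT livers. The least abundant on this scale were Trib3 in KO livers, at 1.26 CPM per kb in KO and 3.38 CPM per kb in WT, and Atf3 in WT livers, at 1.41 CPM per kb in KO and 1.34 CPM per kb in WT.

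Averaged over the 6 times, 1 of 34 members differed between genotypes. It was Trib3, a pseudokinase that binds AKT and is a target of ATF4, which fell by 0.94 on the log2 scale (SE 0.17, adjusted p = 0.000203). No member was called higher. In this comparison 8.86% of all genes tested were called (4.94% higher and 3.92% lower), so the members' share is below the background. The median log2 fold change of the 34 was 0.04, against 0.00 over all genes tested. More members were called at single times.

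**Figure D1:**
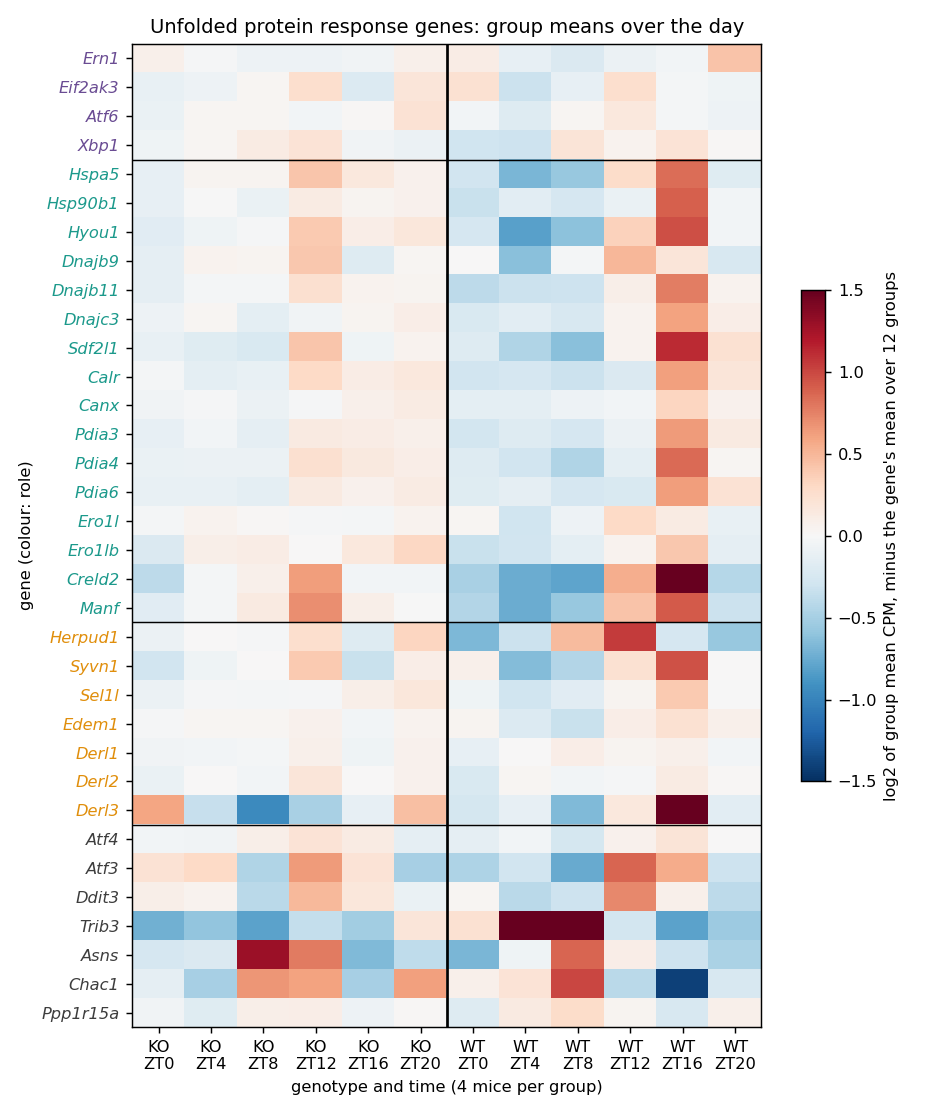
Group means of the 34 genes, with the KO groups left of the WT groups and times from ZT0 to ZT20 within each (4 mice per group). Colour is log2 CPM centred per gene, and it saturates at 1.5 on either side. The KO columns are more even than the WT columns, where most chaperones and degradation genes are highest at ZT16 and Trib3 at ZT8.

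In KO livers, 0 of 34 members were called for a change with time by edgeR, where 0.910% of all genes tested were called. Of the 34, 6 had an unadjusted p under 0.05 there (Atf3, Asns, Atf4, Ddit3, Derl2 and Manf), and limma with cage as a random block also called 0. In WT livers 31 of 34 varied with time, with Atf6, Asns and Chac1 not called, and 47.9% of all genes varied. The difference itself, the interaction of genotype with time, was called for 18 of 34, against 20.7% of all genes. These were 13 of 16 chaperones, 4 of 7 degradation genes, 1 of 7 ATF4 pathway genes and none of the 4 sensors and Xbp1. The count fell to 11 without KO mouse 31 of ZT16 and was 11 to 19 over all fits that left out 1 mouse.

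A 24 h wave was called by edgeR for 0 of 34 members in KO livers (0.984% of all genes; 4 members with an unadjusted p under 0.05, and 0 by DESeq2) and for 29 in WT livers (48.1% of all genes). Without KO mouse 44 of ZT0, Atf4 was called in KO livers, which made the count 1. All 16 chaperones had a wave in WT livers, with peaks between 13.9 and 17.5 h and a median peak at 15.99 h, in the subjective night. Their median amplitude, the fitted distance from mean to peak, was 0.16 in KO livers and 0.43 in WT livers on the log2 scale, and over all genes the median was 0.11 in KO livers and 0.18 in WT livers. The fitted amplitude was lower in KO livers than in WT livers for 32 of 34 members, including all 16 chaperones, and for 71.9% of all genes. The exceptions were Asns, at 0.83 (SE 0.24) in KO livers and 0.65 (SE 0.24) in WT livers, and Derl2, at 0.09 in both. The difference between the waves was called for 12 of 34 (22.8% of all genes): Hspa5, Hyou1, Dnajb11, Dnajc3, Sdf2l1, Creld2, Manf, Herpud1, Syvn1, Edem1, Derl3 and Trib3. The calls of Sdf2l1, Manf and Derl3 each ended in some fits that left out 1 mouse, with adjusted p between 0.0512 and 0.14.

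**Figure D2:**
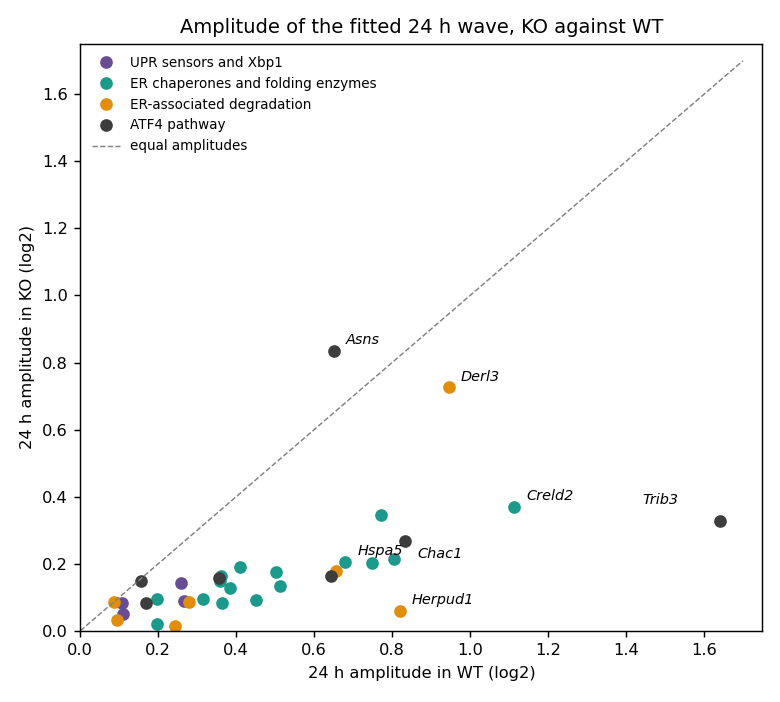
Amplitude of the fitted 24 h wave of each of the 34 genes in KO livers (vertical axis) against WT livers (horizontal axis), both on the log2 scale, coloured by role. 32 of 34 points lie under the line of equality, and Trib3 lies farthest to the right.

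As a group, the sensors and Xbp1 had the lowest median 24 h amplitude of the 4 roles in WT livers, at 0.18, although Derl1 and Derl2 had lower amplitudes than any of them. Ern1 had a wave in WT livers with an amplitude of 0.27 (SE 0.07) and a peak at 20.4 h. Xbp1 had one with an amplitude of 0.26 (SE 0.07) and a peak at 13.5 h, and the waves of Eif2ak3 and Atf6 were not called (adjusted p = 0.52 and 0.162). At ZT16, Xbp1 stood at 242, 249, 347 and 207 CPM in KO livers, against 258, 279, 471 and 233 CPM in WT livers, with a log2 fold change of -0.25 (adjusted p = 0.49). The values of the genotypes overlapped. The count covers both splice forms of Xbp1 together, so the spliced share that marks IRE1 activity was not read.

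The main difference in the chaperone group was at ZT16. There 10 of 34 members were lower in KO livers and none was called higher, against 5.37% of all genes called (2.60% higher and 2.77% lower). They were the chaperones and folding enzymes Hsp90b1, Creld2, Dnajb11, Sdf2l1, Pdia4, Dnajc3, Pdia3 and Pdia6 and the degradation genes Syvn1 and Derl3. All 16 chaperones had a negative log2 fold change there, with a median of -0.62, and the median over all genes was 0.00. In 15 of 34 members every KO mouse lay below every WT mouse, which held for 7.49% of all genes tested, and in no member did every KO mouse lie above (7.02% of all genes). None of the 4 sensors and Xbp1 and none of the 7 ATF4 pathway genes was called at ZT16.

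**Figure D3:**
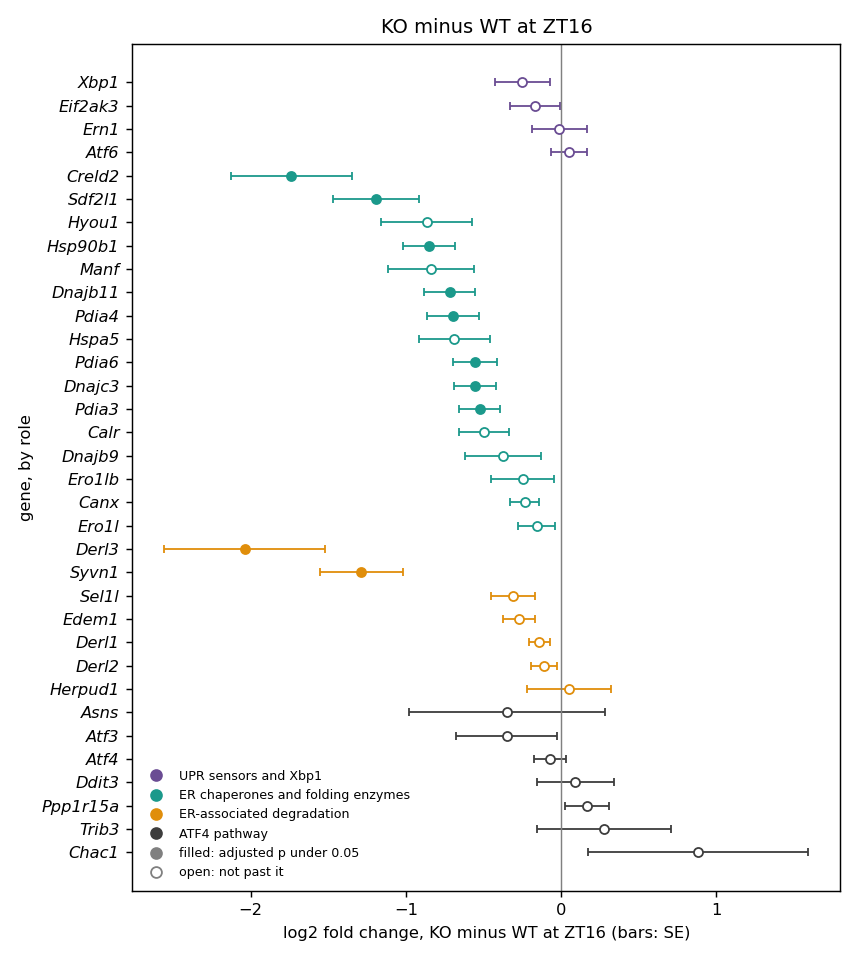
Log2 fold change, KO minus WT, of each gene at ZT16, with bars of 1 SE (4 mice per genotype), grouped by role. The chaperones all lie left of 0, with Creld2 lowest among them at -1.74, and Derl3 is the lowest of all at -2.04.

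Hspa5 (chromosome 2, 34627490 to 34632051 in mm9) had 1388, 1409, 1184 and 850 CPM in KO livers at ZT16, against 1759, 1518, 2409 and 2094 CPM in WT livers. Every KO mouse was below every WT mouse, but the log2 fold change of -0.69 (SE 0.23) did not pass (adjusted p = 0.066). At ZT4 it had 1057, 1602, 812 and 981 CPM in KO livers, against 681, 701, 585 and 738 CPM in WT livers. There every KO mouse lay above every WT mouse, with a log2 fold change of 0.72 (SE 0.23, adjusted p = 0.0639). The same held at ZT8, at 0.62 (SE 0.23, adjusted p = 0.0916). Over the day its group means spanned 1.46-fold in KO livers, from 992 to 1451 CPM, and 2.88-fold in WT livers, from 676 to 1945 CPM. The interaction was called (adjusted p = 0.0145).

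Hsp90b1 (chromosome 10, 86152954 to 86168254 in mm9) encodes GRP94, the HSP90 of the ER. It had 1057, 1179, 1053 and 865 CPM in KO livers at ZT16, against 1558, 1286, 2414 and 2244 CPM in WT livers. The WT mice were spread widely and none overlapped the KO mice, and the log2 fold change was -0.85 (SE 0.17, adjusted p = 0.00194). At the other 5 times the genotypes overlapped.

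Creld2, a secreted chaperone with disulfide isomerase activity whose promoter is shown above, had 64.7, 49.3, 44.8 and 25.2 CPM in KO livers at ZT16, against 109, 75.6, 221 and 208 CPM in WT livers. Its log2 fold change was -1.74 (SE 0.39, adjusted p = 0.006). At ZT8 the direction was the other way, with 38.4, 34.2, 41.2 and 86.1 CPM in KO livers, against 28.3, 26.0, 27.3 and 28.2 CPM in WT livers. All KO mice were above all WT mice, yet the log2 fold change of 0.86 did not pass (adjusted p = 0.18).

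Among the cofactors of Hspa5, Dnajb11, an HSP40 of the ER lumen, had 131, 138, 137 and 106 CPM in KO livers at ZT16, against 197, 174, 248 and 226 CPM in WT livers. This was a log2 fold change of -0.72 (SE 0.17, adjusted p = 0.00776). Sdf2l1, which forms a complex with Dnajb11, had 45.9, 39.8, 42.9 and 29.5 CPM in KO livers, against 81.4, 64.4, 121 and 94.4 CPM in WT livers. Its log2 fold change was -1.19 (SE 0.28, adjusted p = 0.00823). Dnajc3, which also inhibits PERK, fell by 0.55 (SE 0.13, adjusted p = 0.011). Hyou1, a large HSP70-like exchange factor, and Manf, a secreted ER stress factor, had log2 fold changes of -0.87 and -0.84 that did not pass (adjusted p = 0.0688 and 0.0626), with no overlap of the genotypes.

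Among the disulfide isomerases, Pdia4 had 298, 305, 299 and 203 CPM in KO livers at ZT16, against 410, 329, 566 and 485 CPM in WT livers, a log2 fold change of -0.70 (SE 0.17, adjusted p = 0.00993). Pdia3, which works with calnexin and calreticulin, fell by 0.53 and Pdia6 fell by 0.55 (adjusted p = 0.0141 and 0.0152). Of the lectin chaperones, Calr had a log2 fold change of -0.50 (adjusted p = 0.0607) and Canx one of -0.23 (adjusted p = 0.13). Of the oxidases that recharge the isomerases, Ero1l stood at -0.16 (adjusted p = 0.52) and Ero1lb at -0.25 (adjusted p = 0.57).

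Of the degradation genes, Syvn1 (chromosome 19, 6046576 to 6053712 in mm9), the ubiquitin ligase HRD1, had 76.3, 76.0, 93.6 and 57.6 CPM in KO livers at ZT16, against 154, 107, 223 and 256 CPM in WT livers. It fell by 1.29 (SE 0.27, adjusted p = 0.00313), with no overlap. Its partner Sel1l had a log2 fold change of -0.31 that did not pass (adjusted p = 0.21). Derl3, a derlin of the same channel complex, had 2.50, 2.24, 3.67 and 1.20 CPM in KO livers, against 5.51, 4.68, 9.49 and 19.8 CPM in WT livers, and fell by 2.04 (SE 0.52, adjusted p = 0.0141). WT mouse 32 was well above the others, and without it the log2 fold change of Derl3 was -1.44 (adjusted p = 0.0969). Derl1 and Derl2, the other derlins, had log2 fold changes of -0.14 and -0.11 at ZT16 and were not called.

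Of these 10 calls, 5 held without any 1 of the 48 mice: Hsp90b1, Syvn1, Creld2, Dnajb11 and Sdf2l1. The calls of Pdia4, Dnajc3, Pdia3, Derl3 and Pdia6 each ended without at least 1 of KO mice 25 and 31 and WT mice 29 and 32 of ZT16, with adjusted p between 0.0506 and 0.0969. The count was 6 without KO mouse 25, without KO mouse 31 and without WT mouse 29, and DESeq2 called 14.

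**Figure D4:**
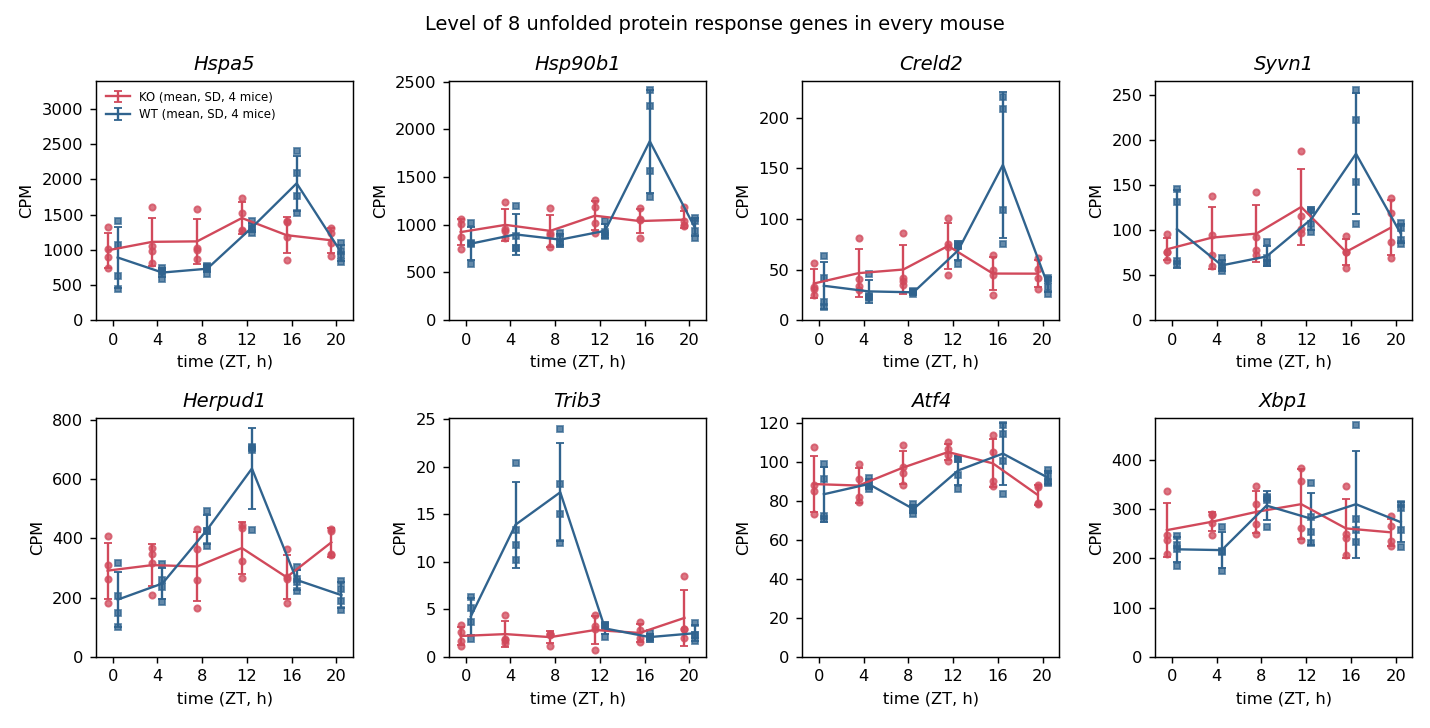
Levels of 8 of the genes in every mouse, in CPM (vertical axes from 0) by time, with KO mice left of WT mice and lines through group means (4 mice per group). Hsp90b1 at ZT16 lies at 865 to 1179 CPM in KO mice and at 1286 to 2414 CPM in WT mice; Trib3 separates at ZT4 and ZT8.

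For group-housed mice, the step between ZT12 and ZT16 lies within 1 set of cages. The fit included the individually housed mice as well. Later minus earlier, 0 of 34 members were called over this step in KO livers by edgeR (3.01% of all genes, 0.896% higher and 2.11% lower), with 6 at an unadjusted p under 0.05, and 27 of 34 log2 changes were negative. In WT livers 11 of 34 were higher and 1 lower at ZT16, against 6.81% and 5.72% of all genes (12.5% in either direction). The 11 were 10 chaperones and Derl3. In WT livers Hsp90b1 rose by 1.003 (SE 0.17, adjusted p = 0.000101), Pdia6 by 0.85 (SE 0.14, adjusted p = 0.000108) and Calr by 0.83 (SE 0.16, adjusted p = 0.000675). Over the 3 steps within cage sets together, 0 members were called in KO livers by edgeR (0% of all genes, 4 members at an unadjusted p under 0.05) and 10 in WT livers (14.3% of all genes). The difference between genotypes over these steps was called for 6 (5.35% of all genes): Pdia4, Pdia6, Calr, Hsp90b1, Pdia3 and Syvn1. These step tests were chosen after the data had been seen.

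Other times showed fewer differences. At ZT0, 0 of 34 were called (1.68% of all genes, 1.06% higher and 0.613% lower; 3 members at an unadjusted p under 0.05, and 0 by DESeq2). At ZT20 edgeR called 0 (1.05% of all genes, 0.647% higher and 0.404% lower; 3 members at an unadjusted p under 0.05), and DESeq2 called 1 higher. At ZT4 all 16 chaperones had positive log2 fold changes, with a median of 0.28 against 0.00 over all genes, and none was called (5 at an unadjusted p under 0.05; DESeq2 called 1 member higher). At ZT4 edgeR called 3.79% of all genes, 1.90% higher and 1.89% lower. At ZT8, 15 of 16 were positive, with a median of 0.24 against 0.01 over all genes, and none was called by edgeR (5 at an unadjusted p under 0.05). Called higher at ZT8 were 2 of 34 members, where 7.87% of all genes were called (3.78% higher and 4.08% lower): Edem1, a lectin that delivers glycoproteins to degradation, and Atf4. Every KO mouse lay above every WT mouse in 7 members at ZT8 (7.35% of all genes), in 2 at ZT4 (7.45%), in 4 at ZT12 (5.68%), in 2 at ZT20 (4.66%) and in none at ZT0 (3.04%). Every KO mouse lay below every WT mouse in 1 member at ZT8 (8.07%), in 2 at ZT4 (5.88%), in 1 at ZT12 (4.77%), in 1 at ZT20 (5.19%) and in none at ZT0 (3.31%).

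Edem1 had 266, 300, 265 and 281 CPM in KO livers at ZT8, against 226, 195, 239 and 208 CPM in WT livers, a log2 fold change of 0.36 (SE 0.10, adjusted p = 0.0245). The groups did not overlap. This call ended without KO mouse 10, WT mouse 12 or WT mouse 16 of ZT8, with adjusted p up to 0.0965. At ZT12, Calr was higher, at 1361, 1290, 1296 and 1275 CPM in KO livers, against 841, 941, 956 and 918 CPM in WT livers (log2 fold change 0.51, SE 0.16, adjusted p = 0.0312), and 11.7% of all genes were called then (6.59% higher and 5.12% lower). This was the reverse of its direction at ZT16, and the call ended without KO mouse 18 or 21 or WT mouse 17 or 23 of ZT12, with adjusted p up to 0.0957, and without KO mice 20, 21, 43 and 44 together (adjusted p = 0.122).

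Herpud1 (chromosome 8, 96910338 to 96919277 in mm9) encodes a membrane protein of the degradation complex. Its fitted 24 h amplitude was 0.06 (SE 0.12) in KO livers and 0.82 (SE 0.11) in WT livers, where it peaked at 10.7 h. At ZT12 it had 267, 322, 435 and 446 CPM in KO livers, against 698, 429, 710 and 706 CPM in WT livers. KO mice 21 and 24 were above WT mouse 19, so the groups overlapped. The log2 fold change was -0.79 (SE 0.27, adjusted p = 0.0476, with 5.12% of all genes called lower). The omission of any 1 of 11 mice ended that call, with adjusted p up to 0.126, as did that of KO mice 20, 21, 43 and 44 together (adjusted p = 0.137). The 11 mice were KO 46 of ZT0, KO 18, 20 and 21 of ZT12, KO 25 of ZT16, WT 12 and 16 of ZT8, WT 17, 22 and 23 of ZT12 and WT 27 of ZT16. At ZT20 it had 344, 425, 346 and 431 CPM in KO livers, against 190, 229, 256 and 157 CPM in WT livers, a log2 fold change of 0.89 with no overlap that did not pass (adjusted p = 0.0925). In WT livers it fell by 1.29 over the step to ZT16 (SE 0.27, adjusted p = 0.0012), while the chaperones named above rose. The interaction and the difference of waves were both called for Herpud1 (adjusted p = 0.00548 and 0.000715).

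In the ATF4 pathway, Trib3 (chromosome 2, 152163158 to 152169768 in mm9) was the member with the widest daily range in WT livers, where its group means spanned 8.35-fold and its wave peaked at 5.74 h. At ZT8 it had 1.12, 2.43, 2.34 and 2.4 CPM in KO livers, against 18.2, 24.0, 15.1 and 12.0 CPM in WT livers. No mice overlapped, and it fell by 3.06 (SE 0.43, adjusted p = 1.38e-05). At ZT4 it had 1.79, 4.43, 1.48 and 1.86 CPM in KO livers, against 10.2, 13.4, 11.7 and 20.4 CPM in WT livers, and it fell by 2.54 (SE 0.42, adjusted p = 0.000461). At ZT4 and ZT8, 1.89% and 4.08% of all genes were called lower. From ZT12 to ZT20 its levels overlapped between genotypes, at 0.754 to 8.49 CPM in KO livers and 1.66 to 3.61 CPM in WT livers. Its fitted amplitude was 0.33 (SE 0.18) in KO livers and 1.64 (SE 0.17) in WT livers. Its mean, ZT4 and ZT8 differences, its interaction and its wave difference were called in all 48 fits that left out 1 mouse.

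Its upstream factor did not share this pattern. Atf4 had 109, 88.3, 94.4 and 97.6 CPM in KO livers at ZT8, against 75.3, 76.4, 73.4 and 78.5 CPM in WT livers, a log2 fold change of 0.36 (SE 0.10, adjusted p = 0.0264). Every KO mouse lay above every WT mouse, so at ZT8 Trib3 mRNA was lower in KO livers and Atf4 mRNA was higher. At ZT4, where Trib3 was also lower, Atf4 overlapped between genotypes. It lay at 79.7 to 98.9 CPM in KO livers and 86.2 to 92.0 CPM in WT livers. The call of Atf4 ended without KO mouse 9 or WT mouse 11, 12, 13 or 16 of ZT8, with adjusted p up to 0.121, and with no filter on low counts (adjusted p = 0.0527). Atf4 is controlled largely at translation, which mRNA counts do not read.

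The other ATF4 targets among the members were not called at any single time. Chac1, which degrades glutathione, had 1.52, 2.82, 2.34 and 6.97 CPM in KO livers at ZT8, against 4.66, 3.19, 1.07 and 8.25 CPM in WT livers. Asns, asparagine synthetase, had 9.02, 12.0, 51.5 and 5.83 CPM in KO livers, against 26.7, 15.4, 12.4 and 4.25 CPM in WT livers. Both overlapped widely, although both carry the CARE letters, as Trib3 does. Ddit3, which encodes the stress factor CHOP, had 10.4, 7.41, 9.02 and 10.57 CPM in KO livers at ZT12, against 11.9, 11.02, 10.61 and 10.8 CPM in WT livers. Every KO mouse lay below every WT mouse, by a narrow margin, and the log2 fold change of -0.24 did not pass (adjusted p = 0.56). Atf3, an induced repressor, and Ppp1r15a, the phosphatase subunit GADD34, were called at no time either.

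**Figure D5:**
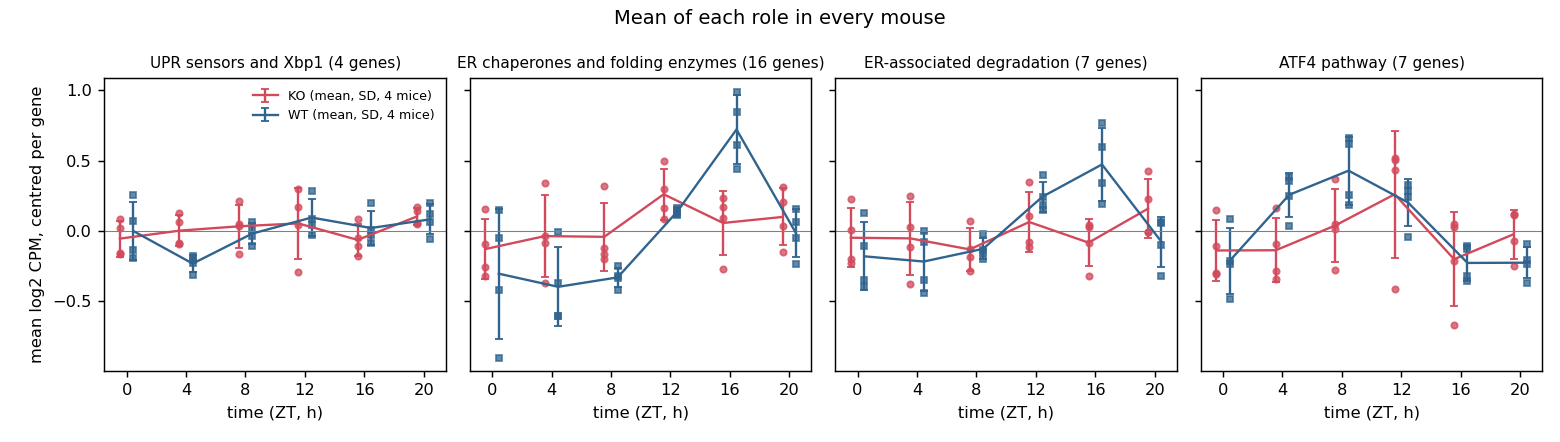
Mean log2 CPM of the genes of each role, centred per gene, in every mouse by time (KO left of WT, lines through group means, 4 mice per group). The chaperone mean at ZT16 is 0.05 in KO livers and 0.72 in WT livers; the ATF4 pathway mean at ZT8, 0.04 in KO livers and 0.43 in WT livers, includes Trib3, with a log2 fold change of -3.06.

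The group means describe the same times of day. At ZT16 the chaperone mean, centred per gene, was 0.05 ± 0.23 in KO livers and 0.72 ± 0.24 in WT livers (log2, SD, n = 4 each). At ZT4 it was -0.04 ± 0.29 in KO livers and -0.40 ± 0.28 in WT livers. The degradation mean at ZT16 was -0.09 ± 0.17 in KO livers and 0.47 ± 0.26 in WT livers. That gap rests largely on Syvn1 and Derl3, the only ones of its 7 genes whose genotypes did not overlap then. Derl3 lay at 1.20 to 3.67 CPM in KO livers and 4.68 to 19.8 CPM in WT livers. The ATF4 pathway mean was highest at ZT12 in KO livers, at 0.26 ± 0.45, and at ZT8 in WT livers, at 0.43 ± 0.24. The ZT8 gap rests on Trib3: the median log2 fold change of the 7 genes was -0.09 at ZT8, with 3 of 7 positive and Atf4 called higher.

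Unfolded protein response genes are known for 12 h patterns in mouse liver. With a 12 h term added, 0 of 34 members were called in KO livers by edgeR (0% of all genes; 3 members at an unadjusted p under 0.05, and 0 by limma with cage as a block). In WT livers 9 were called (5.48% of all genes): Hsp90b1, Pdia4, Pdia6, Pdia3, Calr, Creld2, Derl3, Ddit3 and Eif2ak3. Hsp90b1 had a 12 h amplitude of 0.37 (SE 0.07, adjusted p = 0.00441), with peaks placed at 4.20 h and again 12 h later. Its WT group means lay between 801 and 976 CPM at 5 of the 6 times and at 1875 CPM at ZT16, and samples 4 h apart give 3 points in 12 h. The difference of the 12 h terms was called for 0 of 34 by edgeR (0.148% of all genes; 12 members at an unadjusted p under 0.05, and 0 by limma with cage as a block), so a loss of the term in KO livers is not shown. The WT count was 3 to 12 when 1 mouse was left out. It fell to 3 without WT mouse 3 of ZT4, to 4 without WT mouse 29 of ZT16, and to 5 without WT mice 32 of ZT16, 33 or 40 of ZT20, or 16 of ZT8, each alone.

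Within groups, most chaperone levels moved together from mouse to mouse. On deviations from group means over 48 mice, Hspa5 correlated most with Manf (Pearson r = 0.951, Spearman rho = 0.904), Hyou1 (r = 0.935, rho = 0.910) and Creld2 (r = 0.922, rho = 0.908). Each had an adjusted permutation p of 0.000122 for r and 0.00015 for rho over 195 relations, which for r is the smallest that 100000 resamples gave here. Over all other genes tested the median r with Hspa5 was -0.000456, and 2.29% had an r of at least 0.5, as did 12 of 15 chaperones. Without the 2 mice farthest in Hspa5, these r were 0.930, 0.922 and 0.902. In all, 14 of 15 other chaperones, 6 of 7 degradation genes and 2 of 4 sensors and Xbp1 correlated positively with Hspa5 by r, and 0 of 7 ATF4 pathway genes did by r (adjusted p of at least 0.0665). The share of all genes called this way was not computed. An r of at least 0.5 was reached by 4 of 7 degradation genes, 1 of 4 sensors and Xbp1 and 0 of 7 ATF4 pathway genes. Atf4 and Ddit3, not called, had r of 0.484 and 0.466 with Hspa5. Canx, Edem1 and Derl1, which were called, had 0.454, 0.456 and 0.433. The median r with the chaperones was 0.74 over 24 KO mice and 0.66 over 24 WT mice. With these fewer mice, 11 of 15 chaperones were called by r in KO and 8 of 15 in WT. Of the 7 degradation genes, 2 were called in KO and 3 in WT. Over WT mice without the 2 farthest in Hspa5, r with the chaperones ran from 0.0663 (Canx) to 0.911 (Manf). Trib3 correlated with Asns (r = 0.493, rho = 0.453, adjusted permutation p = 0.0244 and 0.0274) and with no other member over 48 mice. Within a genotype its r with Asns was not called (adjusted permutation p = 0.0665 in KO and 0.301 in WT). In KO mice alone, Trib3 correlated with Hsp90b1 (r = 0.601, adjusted permutation p = 0.0191). The median r of Trib3 with the 15 chaperones other than Hspa5 was 0.294 in KO mice and -0.25 in WT mice. All genes of a mouse share its library, so shared RNA quality or handling also enters these values.

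The members with an ERSE and those without can be set side by side. Of the 10 with the letters, 6 were called at ZT16 and 8 for the interaction (5.37% and 20.7% of all genes). Of the 20 without, 4 were called at ZT16 and 8 for the interaction. The sets differ in role. Those without hold all 7 ATF4 pathway genes, 3 genes of the sensors and Xbp1, and Dnajb11 and Herpud1 with the ERSE-II. The ERSE was in 8 of 14 chaperones. Among chaperones, Hsp90b1, Dnajc3, Pdia6 and Creld2 with the ERSE were called at ZT16, as were Dnajb11, Sdf2l1, Pdia4 and Pdia3 without it. The median 24 h amplitude with the ERSE was 0.163 in KO livers and 0.431 in WT livers, and without it 0.137 in KO livers and 0.359 in WT livers. Of the 5 members with a CARE, 0 were called at ZT16 by edgeR and 2 for the interaction (Trib3 and Herpud1).

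Further genes of the same pathways, from lists drawn up by function, were counted beside the members. Of 16 other ER folding genes, 0 were called for time in KO livers by edgeR (6 at an unadjusted p under 0.05), 14 varied with time in WT livers (47.9% of all genes), and 7 had an interaction (20.7% of all genes). At ZT16, 5 of the 16 were lower in KO livers and none higher (2.77% and 2.60% of all genes). The median log2 fold change was -0.26. They were named after their values were seen: P4hb (-0.38), the main disulfide isomerase, Ppib (-0.38), cyclophilin B, Uggt1 (-0.45), the glucosyltransferase that senses folding, Dnajc1 (-0.21) and Erp44 (-0.26), with adjusted p between 0.0117 and 0.0444. Averaged over times, Fkbp14, Prdx4 and Sil1 were higher in KO livers, by 0.23, 0.15 and 0.13 (4.94% of all genes were called higher). Of 16 other degradation genes, 9 varied with time in WT livers and 5 had an interaction, the first share being near that of all genes, and 0 were called at ZT16 by edgeR, where 3 had an unadjusted p under 0.05. Ube2g2, an E2 enzyme of this pathway, had a wave in WT livers with an amplitude of 0.36 and a peak at 16.4 h.

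Of 19 other ATF4 pathway genes tested, 9 varied with time in WT livers and 4 had an interaction, both shares near those of all genes (47.9% and 20.7%). Ddit4, an inhibitor of mTORC1, and Eif4ebp1, a repressor of translation, had WT waves with peaks at 17.4 h and 8.04 h and amplitudes of 1.15 and 0.37. Atf5, a factor related to ATF4, was higher in KO livers averaged over times by 0.27 (SE 0.08, adjusted p = 0.0292), and Slc3a2 and Nupr1 were higher by 0.14 and 0.39. None was lower on average, whereas Trib3 was (4.94% of all genes were called higher and 3.92% lower). Of 6 genes of the eIF2 alpha kinases and phosphatase, 5 varied with time in WT livers (47.9% of all genes) and 3 had an interaction (20.7%). None of the 6 was called for the mean difference by edgeR (8.86% of all genes), with 1 at an unadjusted p under 0.05. Among 7 genes of ATF6 processing and the CREB3 family, Creb3l1 was higher by 0.32 (SE 0.07, adjusted p = 0.00189) and Creb3l3, a liver factor of lipid metabolism, was lower by 0.25 (SE 0.06, adjusted p = 0.00387). Atf6b, the relative of Atf6, had a WT wave with a peak at 16.8 h and an amplitude of 0.40.

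Markers of other cells and of handling were read beside these results. At ZT16 the sum of 6 B and plasma cell markers, none of them at 0 in all mice, was 328 to 409 CPM in KO livers and 500 to 537 CPM in WT livers. Most of it is Sdc1, which hepatocytes also express and which was called lower by 0.52 (adjusted p = 0.0166), 1 of the 5 markers tested. The 5 markers without Sdc1 summed to 6.05 to 8.90 CPM in KO livers and 10.2 to 14.3 CPM in WT livers. Plasma cells express Derl3, Creld2 and other members at high levels, and the part of these cells in the ZT16 results was not tested. At ZT4 the sum of 10 immediate early genes was 133 to 451 CPM in KO livers and 140 to 211 CPM in WT livers, with Fos and Jun called higher, and their part in the ZT4 values was not tested. Among markers of other cells at ZT4, the sums for T and NK cells, stellate cells, cholangiocytes and exocrine pancreas overlapped between genotypes. Other sums were higher in KO livers then. The sum of 7 Kupffer cell and macrophage markers was 1232 to 1459 CPM in KO livers and 873 to 1111 CPM in WT livers, with none called by edgeR (1 at an unadjusted p under 0.05). The sum of 6 endothelial markers was 389 to 428 CPM in KO livers and 322 to 366 CPM in WT livers, with Lyve1 called higher by 1.08 (adjusted p = 0.00425). The B and plasma cell sum was 413 to 494 CPM in KO livers and 302 to 369 CPM in WT livers at ZT4. At ZT8 it was 329 to 450 CPM in KO livers and 247 to 291 CPM in WT livers, with Sdc1 called higher at both times. Without Sdc1 this sum overlapped between genotypes, at 9.75 to 18.3 CPM in KO livers and 9.8 to 17.2 CPM in WT livers at ZT4. The ZT8 values without Sdc1 were 6.26 to 18.7 CPM in KO livers and 8.54 to 24 CPM in WT livers. At ZT12 the sum of 9 exocrine pancreas markers was 38.1 to 62.7 CPM in KO livers and 15.6 to 30.9 CPM in WT livers, with both markers tested (Cela1 and Cela2a) called higher. At ZT12 the hepatocyte markers Tat and Cps1 and the endothelial marker Kdr were called lower. The part of these cells in the ZT4, ZT8 and ZT12 values was not tested. Of 9 exocrine pancreas markers, 7 had a median of 0 CPM, and Cela2a was called higher at ZT16. None of the Kupffer cell, T and NK cell, endothelial, stellate or cholangiocyte markers was called at ZT16 by edgeR, and none of these had an unadjusted p under 0.05.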

How the data were processed

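Liver poly-A RNA of 48 mice was sequenced with a kit that does not record strand, over 13 PCR cycles and with 2 libraries per lane. Per the submitters' processing notes, CASAVA (version not given) and STAR 2.4.0f1 were used with mouse build mm9. The values deposited by the authors are whole read counts per gene. The counting tool and the handling of reads that match several genes are not given in the sources used here. Totals lie within a narrow range; how they came to do so is not given in the sources used here, so sequenced depth is unknown.

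Counts were tested with edgeR 4.0.16 (R 4.3.3) after filterByExpr (minimum count 10), with TMM factors of 0.898 to 1.14. One model had a mean per group (36 residual degrees of freedom), one a 24 h wave per genotype (42) and one 24 h and 12 h waves (38). P values were adjusted by Benjamini-Hochberg across the 14836 genes that passed; levels are CPM, and log2 CPM used a prior count of 2. SEs were derived from F statistics, and those of amplitudes are approximate. Correlations have two-sided permutation p values within groups (100000 resamples). The scripts were tested on simulated counts. Alternatives were other scaling, no filter, DESeq2 1.42.0, limma 3.58.1 with cage as a random block, body weight, omission of 4 KO mice or of each mouse, and steps within cage sets.

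The members and lists were chosen with earlier results of these data known. Named with full values were Hspa5, Xbp1, Atf4 and Ddit3, the 8 members with the smallest p for the mean difference, for time in WT and for the interaction, and members called at a single time, 21 in all; for other lists, up to 3 called genes for the mean difference and for time in WT. Replicate pairs differed far beyond counting error (chi-square per gene 22.2 to 125), so all were kept as separate mice. Reads carry no molecular identifiers, so a count is not a number of molecules.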

Additional observations from a re-analysis of the deposited data

Results flagged for a closer look

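In 20 of 252 sets of 4 mice (21 named genes in 12 groups), 1 mouse stood apart by Dixon's criterion at the 95% level; chance flags about 1 set in 20. For each, the value of the mouse is given before the range of the other 3 mice of its group. KO mouse 5 of ZT4 was highest for Trib3, at 4.43 CPM against 1.48 to 1.86 CPM. KO mouse 9 of ZT8 was lowest for Trib3, at 1.12 CPM against 2.34 to 2.43 CPM. KO mouse 15 of ZT8 was highest for Creld2, at 86.1 CPM against 34.2 to 41.2 CPM and Sdf2l1, at 47.8 CPM against 29.9 to 32.8 CPM. KO mouse 20 of ZT12 was lowest for Dnajb11, at 128 CPM against 150 to 154 CPM and Pdia3, at 687 CPM against 726 to 729 CPM. KO mouse 31 of ZT16 was lowest for Pdia4, at 203 CPM against 298 to 305 CPM. KO mouse 38 of ZT20 was highest for Calr, at 1417 CPM against 1096 to 1133 CPM and Derl3, at 7.99 CPM against 1.63 to 2.58 CPM. KO mouse 39 of ZT20 was highest for Trib3, at 8.49 CPM against 1.98 to 2.97 CPM. WT mouse 42 of ZT0 was highest for Ddit3, at 13.3 CPM against 3.96 to 5.11 CPM. WT mouse 3 of ZT4 was highest for Creld2, at 45.9 CPM against 21.6 to 23.5 CPM, Pdia3, at 726 CPM against 496 to 535 CPM and Pdia6, at 416 CPM against 271 to 288 CPM. WT mouse 12 of ZT8 was lowest for Xbp1, at 263 CPM against 318 to 326 CPM and Manf, at 69.9 CPM against 79.8 to 80.2 CPM. WT mouse 16 of ZT8 was lowest for Pdia4, at 147 CPM against 193 to 194 CPM. WT mouse 19 of ZT12 was lowest for Herpud1, at 429 CPM against 698 to 710 CPM. WT mouse 23 of ZT12 was lowest for Manf, at 123 CPM against 162 to 168 CPM and Creld2, at 55.3 CPM against 72.8 to 74 CPM. The genes of 1 mouse share a library, so flags in the same mouse are not independent.

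The difference between KO and WT mice depended on time in the edgeR interaction test for 18 members, with adjusted p values of Trib3 (8.75e-06), Syvn1 (0.00222), Hsp90b1 (0.00315), Creld2 (0.0048), Herpud1 (0.00548), Pdia4 (0.00579), Dnajb11 (0.00676), Edem1 (0.0138), Hspa5 (0.0145), Sdf2l1 (0.0149), Pdia6 (0.0168), Pdia3 (0.0188), Calr (0.0193), Manf (0.0245), Dnajc3 (0.025), Ero1l (0.0281), Derl3 (0.0308) and Hyou1 (0.0355). The 24 h waves of the genotypes differed for 12 members in the edgeR test of the difference, with adjusted p values of Trib3 (9.63e-07), Herpud1 (0.000715), Edem1 (0.00632), Dnajb11 (0.00859), Hspa5 (0.00879), Creld2 (0.0101), Syvn1 (0.014), Dnajc3 (0.0142), Hyou1 (0.0162), Manf (0.0238), Sdf2l1 (0.0261) and Derl3 (0.0409).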

How the results depend on the processing

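No replicate number is shared between groups, so replicates were not paired. Of 19 cages of group-housed mice, 11 held both genotypes. Cage entered as a random block in the limma fit, and KO and WT cage mates were not compared as pairs. The counts of called members under other settings were as follows. With total counts and no scaling factors, 1 member was called higher at ZT4, against 0. Without KO mice 20, 21, 43 and 44, 2 were called higher at ZT4 and 0 higher and 0 lower at ZT12, against 0, 1 and 1. With no filter on low counts, 1 was higher at ZT8, against 2, and 0 were higher and 0 lower at ZT12. With body weight as a covariate 0 were lower at ZT12. DESeq2 called 1 higher at ZT4 and 1 higher at ZT20. With cage as a random block the 12 h term in WT was called for 5, against 9. With steps within cage sets only, the interaction was called for 6, against 18, and time in WT for 10, against 31; fewer times are compared there. The cause of the other changes was not tested. When each mouse was left out in turn, the count of members called was 0 to 1 higher at ZT4, 0 to 2 higher at ZT8, 0 to 1 higher and 0 to 3 lower at ZT12 and 6 to 14 lower at ZT16. It was 11 to 19 for the interaction, 28 to 32 for time in WT, 0 to 1 for the 24 h wave in KO, 26 to 30 for that in WT, 9 to 16 for the wave difference and 3 to 12 for the 12 h term in WT. Over the 116 calls of single members and tests, 772 values were had under settings other than leaving out a mouse, of which 742 stayed called and 30 did not. Precision rests on 4 mice per group, and for members near 1 CPM, such as Trib3, Chac1 and Derl3 in KO livers, also on low counts, the lowest being 12.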
